A study of Mus musculus with 11 samples.

Results

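The 42 genes described here are the collagen genes other than type I, chosen as every row of the deposited table whose symbol has the form Col, a type number, the letter a, and a chain number, without Col1a1 and Col1a2. They are 42 of the 28284 genes in the table. Collagens are secreted proteins whose 3 chains wind into a triple helix, and most are built into fibers or sheets outside the cell. In a gynecologic tract the network collagens underlie epithelium, vessels, and muscle, and the fibrillar collagens fill the stroma, where fibroblasts make most of them. By structure, the 42 genes comprised 9 fibrillar chains, 6 chains of the basement membrane network (type IV), 6 beaded filament chains (type VI), 3 short-chain network chains (types VIII and X), 1 anchoring fibril chain (type VII), 9 FACIT chains, which sit on the surface of fibrils and whose own triple helices are interrupted, 4 transmembrane chains, 2 multiplexins, and 2 others.

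The data were bulk mRNA sequencing of 11 cell lines from 7 OvTrpMyc mice, 1 library per line. These mice carry Ovgp1-Trp53-R270H-Myc, a transgene in the endogenous Trp53 locus in which the promoter of the oviductal glycoprotein gene Ovgp1 drives a dominant-negative p53 mutant and Myc, and heterozygous females on a C57BL/6 background were used. All 11 lines carry this genotype, no wild-type line was included, and the age of each donor mouse is not given in the sources used here. Tissue was taken from mice that met criteria for euthanasia, minced, and grown in RPMI medium until lines were established, with no further treatment. The methods describe no cloning step, so a line can hold more than one kind of cell. The ovary, cut out together with its fallopian tube, gave 7 lines (F318 LOV, F318 ROV, F319 ROV, F326 ROV, F339 ROV, F364 LOV, and F364 ROV), and the uterus gave 2 (F319 and F333). The remaining 2 lines grew from single tumors, on the spleen of F326 and in the peritoneum of F361. Per the methods of the study, the F361 line did not express the mutant p53 copy. Mice F318, F319, F326, and F364 each gave 2 lines.

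The depth of a library lay between 13580525 and 27044598 counts. Levels are given as CPM, the count of a gene scaled to the same total in each library, and 3 counts, taken as the limit of detection, came to 0.111 to 0.221 CPM. The libraries numbered S1 to S7 in the labels stood apart from S8 to S11 (the uterus lines of F333 and F319, F339 ROV, and F318 LOV). A list of skeletal muscle fiber genes, 38 of its 39 found in the table, held 8.19% to 15.3% of the counts in S1 to S7 and 0.168% to 1.30% in S8 to S11. Ddx3y, Uty, Eif2s3y, and Kdm5d, which lie on the Y chromosome, summed to 128 to 174 CPM in S1 to S7 and to 1.75 to 19.2 CPM in S8 to S11, although the donors were female. Levels are therefore given by line or by library series, and the organs are compared at the end. All lines are labelled ovarian cancer. Of 14 epithelial markers, 4 reached 10 CPM in any line (Krt7, Krt8, Krt18, and Krt19), and Epcam and Cdh1 did not exceed 2.12 and 3.68 CPM. All 8 fibroblast markers reached 10 CPM. In such bulk libraries, fewer cells of a type and less RNA per cell cannot be told apart.

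Collagen genes other than type I took 0.105% (F361 peritoneal tumor) to 1.89% (F339 ROV) of all counts, with a median of 0.397%. The share was 0.105% to 0.778% in S1 to S7, with its highest value in F318 ROV, and 1.28% to 1.89% in S8 to S11, and the series did not overlap. The fibroblast list held 0.0651% to 0.244% of the counts in S1 to S7 and 0.387% to 0.442% in S8 to S11. Its member with the highest median level was Vim, the mesenchymal filament vimentin, at 214 to 1279.7 and 2179 to 3504 CPM. Its members did not move together: Dcn, the fibril-binding proteoglycan decorin, was at 160.1 to 323 CPM in S1 to S7 and 12.1 to 31.8 CPM in S8 to S11, and Lum, the related lumican, at 2.72 to 24.9 and 0.175 to 1.49 CPM. The part of fibroblasts in the collagen share was not tested. Of the 42 genes, 29 reached 10 CPM in at least 1 line. The other 13 stayed below 10 CPM in all lines: Col6a4, Col6a5, Col6a6, Col9a1, Col9a2, Col9a3, Col13a1, Col19a1, Col20a1, Col23a1, Col25a1, Col26a1, and Col28a1. Their highest values ran from 0.571 CPM (Col25a1) to 9.31 CPM (Col20a1). For the 195 values of 10 CPM or more, the 95% Wilson interval was at most 16.8% of the value to either side. It covers counting error only, with each count taken as 1 read, and is too narrow if both mates of a pair were counted.

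**Figure D1:**
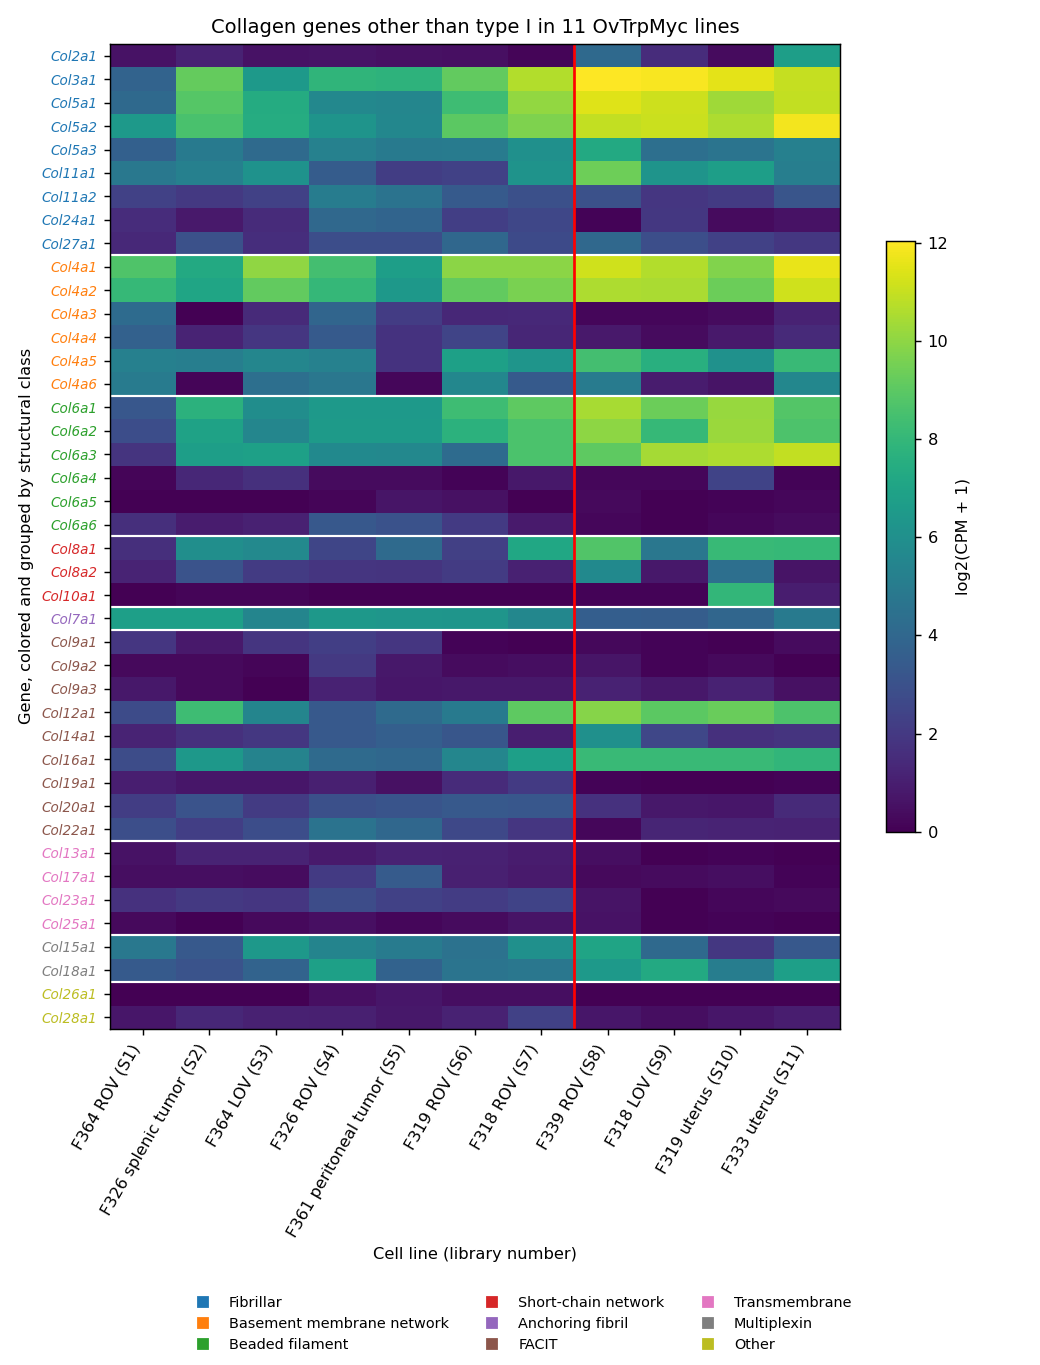
Level of each of the 42 genes (rows, grouped and colored by structural class) in each line (columns, with library number), as log2(CPM + 1). The red line parts libraries S1 to S7 from S8 to S11. Fibrillar, type IV, and type VI rows reach the brightest values in S8 to S11, and Col10a1 is bright in the F319 uterus line alone, at 250.3 CPM.

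Per kilobase of exon, which allows levels of different genes to be compared, Col4a1 had the highest median over the 11 lines, 132 CPM per kilobase, followed by Col4a2 (86.4), Col6a1 (70.4), Col3a1 (58.7), Col5a1 (54.7), Col5a2 (53.8), Col6a2 (25.8), and Col12a1 (20.8). This order pools the library series and differed between them: by the median of S1 to S7, Col4a1 (56.2) and Col4a2 (40.5) came first, before Col3a1 (23.6) and Col6a1 (20.7), and by that of S8 to S11, Col3a1 (343) came before Col4a1 (258), Col5a1 (247), and Col4a2 (221). Each of these levels ranged over at least 27.5-fold between lines. Within lines, Col4a1 was above Col4a2 per kilobase in all but F318 LOV. The make-up of the collagen RNA also differed between lines. The type IV chains held 72.05% of the genes' summed CPM per kilobase in F364 ROV and 65.5% in F364 LOV, the other ovary of the same mouse, against 13.6% in the F326 splenic tumor line and 14.2% in the F319 uterus line. Fibrillar chains held 11.6% in F364 ROV and 50.9% in F318 LOV. Beaded filament chains held 2.10% in F364 ROV and 33.5% in the uterus line of F319. F364 ROV therefore had the lowest fibrillar and type VI shares and the highest type IV share of all 11 lines.

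**Figure D2:**
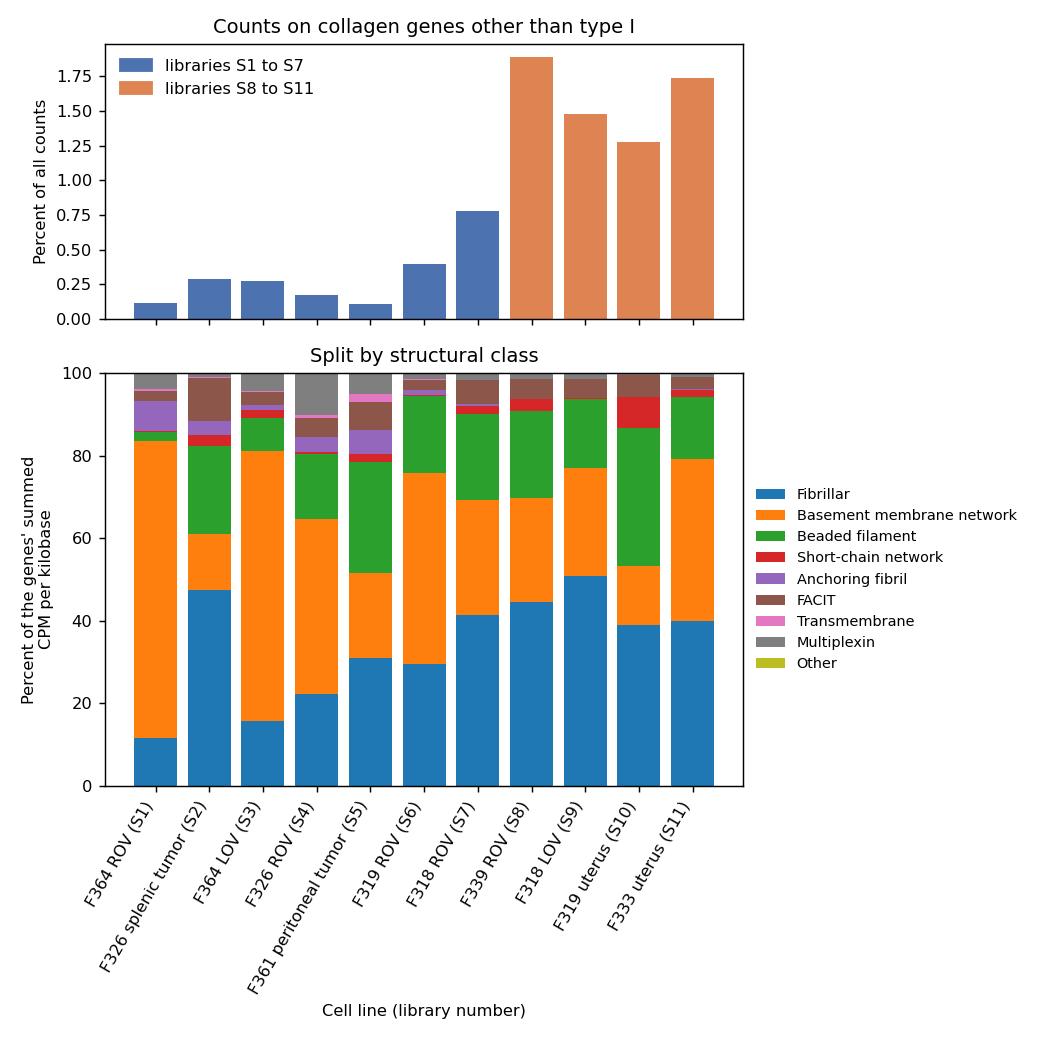
Top, percent of all counts on the 42 genes in each line, with S1 to S7 in blue and S8 to S11 in orange. Bottom, split of the genes' summed CPM per kilobase by structural class, in percent. Basement membrane chains hold 72.05% in F364 ROV and 13.6% in the F326 splenic tumor line.

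Type IV collagen is the sheet-forming collagen of basement membranes, and its 6 genes lie in 3 pairs that are transcribed away from each other from a shared region. By the GENCODE M21 gene models, the models of Col4a1 and Col4a2 on chromosome 8 overlapped by 22 bases (start sites at 11312826 on the minus strand and 11312805 on the plus strand). Those of Col4a4 and Col4a3 on chromosome 1 were 72 bases apart, and those of Col4a6 and Col4a5 on the X chromosome 1309 bases apart. The promoters of the pairs whose levels were the most and the least even of the 3 are shown, from RefSeq on GRCm38.p6, each from 250 bases before the start site to 50 after it, 5′ to 3′ on the gene's own strand. Capitals mark CCAAT and GGGCGG, bound by NF-Y and by Sp factors, on either strand (ATTGG and CCGCCC on the other one).
Col4a1 (chr8:11312777-11313076, minus strand): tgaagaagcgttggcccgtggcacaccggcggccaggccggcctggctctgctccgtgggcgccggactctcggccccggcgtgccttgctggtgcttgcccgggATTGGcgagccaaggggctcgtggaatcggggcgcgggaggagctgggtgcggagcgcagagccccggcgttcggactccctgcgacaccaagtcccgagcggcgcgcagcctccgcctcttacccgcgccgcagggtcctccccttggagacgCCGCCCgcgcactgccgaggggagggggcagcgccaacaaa
Col4a2 (chr8:11312555-11312854, plus strand): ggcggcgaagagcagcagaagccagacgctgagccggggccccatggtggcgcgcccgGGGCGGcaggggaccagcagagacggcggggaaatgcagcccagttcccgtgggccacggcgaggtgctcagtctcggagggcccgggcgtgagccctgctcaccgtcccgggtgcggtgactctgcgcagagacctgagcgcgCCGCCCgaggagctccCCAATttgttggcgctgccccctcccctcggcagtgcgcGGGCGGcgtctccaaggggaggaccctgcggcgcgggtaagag
Col4a6 (chrX:141474027-141474326, minus strand): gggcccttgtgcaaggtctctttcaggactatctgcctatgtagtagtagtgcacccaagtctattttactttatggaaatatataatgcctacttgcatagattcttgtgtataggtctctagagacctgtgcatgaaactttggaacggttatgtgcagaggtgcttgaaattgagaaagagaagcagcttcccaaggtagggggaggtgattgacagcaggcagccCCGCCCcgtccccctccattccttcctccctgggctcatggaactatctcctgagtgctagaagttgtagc
Col4a5 (chrX:141475169-141475468, plus strand): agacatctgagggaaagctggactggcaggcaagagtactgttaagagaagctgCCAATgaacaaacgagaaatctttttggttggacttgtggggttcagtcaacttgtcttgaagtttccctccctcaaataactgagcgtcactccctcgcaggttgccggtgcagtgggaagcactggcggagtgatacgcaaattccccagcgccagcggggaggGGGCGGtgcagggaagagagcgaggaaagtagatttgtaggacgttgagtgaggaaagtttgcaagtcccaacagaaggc
The windows of Col4a1 and Col4a2 share 78 bases. Col4a1 held 1 CCAAT and 1 GGGCGG, Col4a2 held 1 and 3, Col4a5 held 1 and 1, and Col4a6 held 0 and 1. The 1 GGGCGG of Col4a1 lies in the shared bases and is also 1 of the 3 of Col4a2. Col4a4, not shown, held 0 of both, and Col4a3 had no entry. In all 32851 promoters of the table, 37.4% held CCAAT and 35.7% held GGGCGG, so these matches are common, and they show letters, not binding.

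Col4a1 and Col4a2 make the main type IV heterotrimer, with 2 chains of the former to 1 of the latter. Col4a1 ranged in S1 to S7 from 107 CPM (F361) over a median of 419.7 to 1042 CPM (F364 LOV). In S8 to S11 it was at 2277 CPM in F339 ROV, 1581 in F318 LOV, 869 in F319 uterus, and 3124 in F333 uterus. The series overlapped, because F319 uterus lay below F364 LOV, F319 ROV, and F318 ROV. Col4a2 ran from 83.6 to 783 CPM in S1 to S7 and at 1498, 1430, 653, and 2303 CPM in the same 4 lines. The ratio of Col4a1 to Col4a2 per kilobase stayed between 0.98 (F318 LOV) and 1.63 (F364 LOV), a range of 1.66-fold, while the chains themselves ranged over 29.1-fold and 27.5-fold. This was the most even of the 8 pairs of chains that were compared.

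Col4a5 and Col4a6, which make the type IV network of smooth muscle and some epithelial basement membranes, did not keep such a ratio. Col4a5 was at 34.3 to 115 CPM in 6 of the 7 lines of S1 to S7 and at 2.36 CPM in the seventh, F361. In S8 to S11 it was at 67.1 CPM in F319 uterus, 194 in F318 LOV, 284 in F333 uterus, and 345 in F339 ROV, so the series overlapped. Col4a6 split the lines in another way. It was at 30.8 CPM in F364 ROV, 19.9 in F364 LOV, 26.4 in F326 ROV, 46.4 in F319 ROV, 9.48 in F318 ROV, 31.4 in F339 ROV, and 47.2 in F333 uterus. In the F326 splenic tumor and F361 lines it had 2 counts each (0.127 and 0.147 CPM), and in F318 LOV and F319 uterus it was at 0.917 and 0.555 CPM. Levels of Col4a6 under 1 CPM thus occurred in both library series and in 4 of the 11 lines. In the 9 lines with more than 3 counts of both, the ratio of Col4a5 to Col4a6 per kilobase ran from 1.40 (F364 ROV) to 252 (F318 LOV), a range of 180.1-fold. The highest ratio rests on 21 counts of Col4a6. Col4a3 and Col4a4, the chains of kidney filter and lung basement membranes, were low, with highest values of 17.3 and 12.4 CPM, both in F364 ROV, and medians of 1.52 and 1.67 CPM. Their ratio per kilobase was 0.224 to 1.56 in the 10 lines with more than 3 counts of both, the lowest with 4 counts of Col4a3 (F339 ROV).

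The fibrillar chains Col3a1, Col5a1, and Col5a2 carried most of the fibrillar counts. Col3a1, the type III chain of extensible tissues such as vessel walls and uterus, ranged from 13.2 CPM (F364 ROV) over a median of 232 to 1592 CPM (F318 ROV) in S1 to S7. It was at 4187 CPM in F339 ROV, 3811 in F318 LOV, 2931 in F319 uterus, and 1988 in F333 uterus, all above every line of S1 to S7. Col5a1 and Col5a2 form the type V collagen that nucleates fibrils and limits their width. Col5a1 ranged from 16.0 (F364 ROV) over 166 to 1091 CPM (F318 ROV) in S1 to S7, and was at 2792, 2250, 1293, and 1941 CPM in S8 to S11 in the order of library number. Col5a2 ranged from 47.2 (F361) over 175 to 829.4 CPM (F318 ROV), and was at 1963, 2142, 1485, and 3637 CPM in the same 4 lines. Neither overlapped between the series. The ratio of Col5a1 to Col5a2 per kilobase was lowest in F364 ROV, at 0.201, and reached 1.61 in F339 ROV. F318 ROV had the highest level of all 3 genes within S1 to S7. Of those 7 libraries it also had the lowest muscle fiber share (8.19%) and the highest fibroblast (0.244%) and smooth muscle (1.01%) list shares. The part of such cells in its levels was not tested. Col5a3, another type V chain, overlapped, at 12.1 to 63.9 CPM in S1 to S7 against 158.6 CPM in F339 ROV and 19.9 to 36.4 CPM in the other 3 lines.

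Col11a1, which forms the core of thin fibrils in cartilage and can join type V chains, was highest in F339 ROV, at 659 CPM, 6.30 times the next line, F319 uterus at 105 CPM, and the rest lay between 3.61 CPM (F361) and 74.0 CPM (F318 LOV). Its ratio to Col5a1 per kilobase ran from 0.00843 (F319 ROV) to 1.11 (F364 ROV), where Col5a1 was at its lowest. Col2a1, the main fibrillar chain of cartilage, was at 105 CPM (95% Wilson interval 100.4 to 109) in F333 uterus, 16.2 CPM (14.7 to 17.8) in F339 ROV, and 1.88 CPM in F318 LOV, and at 0.114 to 1.202 CPM in the other 8 lines. Of 7 chondrocyte markers, 5 were in the table, and together they held 0.000537% to 0.00884% of the counts in S1 to S7 and 0.000636% to 0.00916% in S8 to S11. Acan, the cartilage proteoglycan aggrecan, was highest in F339 ROV at 22.3 CPM and Matn3, a cartilage matrilin, in F333 uterus at 3.67 CPM, while Hapln1, a cartilage link protein, was at 0 in 10 lines. Sox9, the factor that drives cartilage genes, was lowest of all lines in F333 uterus, where Col2a1 was highest, at 2.46 CPM, and both it and the matrilin Matn4 were highest in F326 ROV, at 82.7 and 5.21 CPM. The part of such cells in Col2a1 was not tested. Col11a2, another cartilage chain, was highest in F326 ROV (32.6 CPM) and F361 (23.2 CPM) and was 2.75 to 9.54 CPM elsewhere. Col24a1 and Col27a1, fibrillar chains with short helices, stayed at or below 15.5 and 15.7 CPM. Col24a1 was highest in the same lines as Col11a2, at 15.5 CPM in F326 ROV and 13.8 CPM in F361.

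Type VI collagen forms beaded microfilaments that link basement membranes to the surrounding matrix, from one chain each of Col6a1, Col6a2, and a further one such as Col6a3. Col6a1 ranged from 8.75 CPM (F364 ROV) over 90.7 to 522 CPM (F318 ROV) in S1 to S7, and was at 1407 CPM in F339 ROV, 644 in F318 LOV, 1145 in F319 uterus, and 446 in F333 uterus. Col6a2 ranged from 6.09 over 94.1 to 391 CPM, with the same lines lowest and highest, and was at 1020.5, 264, 1192, and 404 CPM in those 4 lines. Both overlapped between the series through F318 ROV. Col6a3 did not overlap. It was at 2.54 CPM (F364 ROV) over 52.1 to 394 CPM (F318 ROV) in S1 to S7 and at 531, 1366, 1515, and 1962 CPM in S8 to S11, and its 773-fold range was the widest among the genes with more than 3 counts in every line. The ratio of Col6a1 to Col6a2 per kilobase stayed within 1.74 (F326 ROV) to 4.64 (F318 LOV), whereas that of Col6a3 to Col6a2 ran from 0.056 (F319 ROV) to 3.60 (F318 LOV), a range of 64.1-fold. In F319 ROV, Col6a1 and Col6a2 stood at 308 and 215 CPM beside 17.3 CPM of Col6a3. The alternatives to Col6a3 were low: Col6a4 reached 4.33 CPM (F319 uterus), Col6a5 0.589 CPM (F361), and Col6a6 9.01 CPM (F326 ROV).

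**Figure D3:**
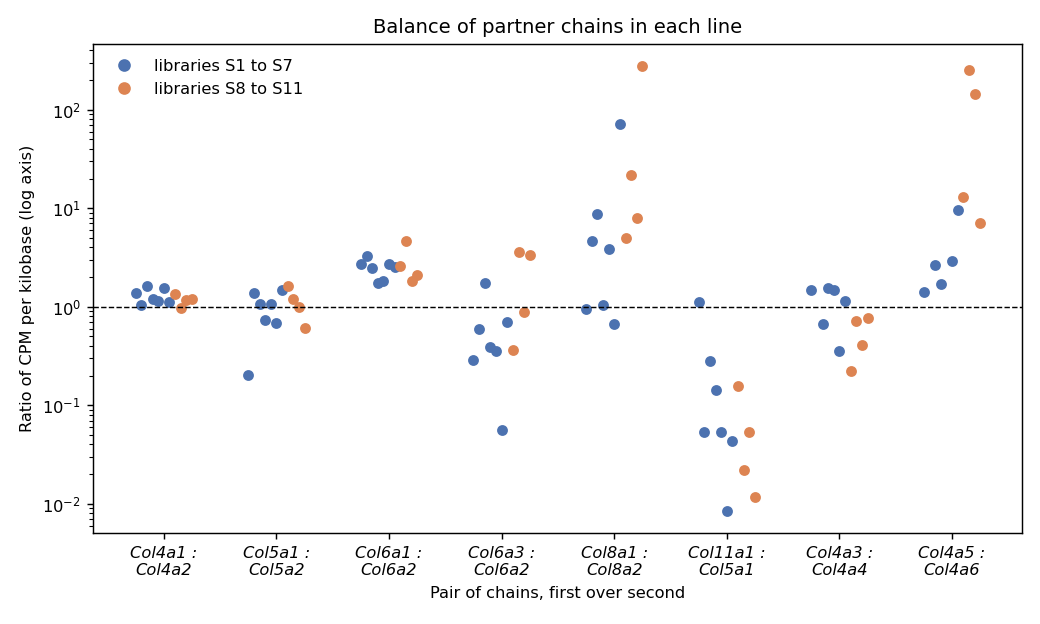
Ratio of CPM per kilobase (log axis) of the first over the second chain for 8 pairs, 1 point per line, with S1 to S7 in blue and S8 to S11 in orange. Points are left out where either chain had 3 counts or less. Col4a1 over Col4a2 stays between 0.98 and 1.63, and Col8a1 over Col8a2 runs from 0.67 to 276, the latter with 12 counts of Col8a2.

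Among the short-chain collagens, Col8a1 and Col8a2, which build hexagonal lattices in vessel walls and under endothelium, did not keep a steady ratio. Col8a1 ranged from 2.09 CPM (F364 ROV) over 16.8 to 143 CPM (F318 ROV) in S1 to S7, and was at 439.5 CPM in F339 ROV, 26.4 in F318 LOV, 276 in F319 uterus, and 268 in F333 uterus. Col8a2 was at 50.7 CPM in F339 ROV, 20.1 in F319 uterus, and 7.53 CPM or less in all others. The ratio per kilobase ran from 0.67 (F319 ROV) to 276 (F333 uterus, where Col8a2 had only 12 counts). Col10a1, the chain of type X collagen that marks hypertrophic cartilage, was above 3 counts in both uterus lines and in no other. F319 uterus had 6769 counts, or 250.3 CPM (244 to 256), F333 uterus had 20 counts, or 0.928 CPM (0.601 to 1.43), and the other 9 lines had 0 or 2 counts each. The level in F319 uterus was 269.6 times that in F333 uterus. In F319 uterus, Col2a1 had 8 counts (0.296 CPM), so type X and type II were not high in the same line. Col7a1, whose product anchors epithelial basement membranes to the dermis, was lower in S8 to S11. It ranged from 44.0 (F364 LOV) over 79.4 to 111 CPM (F326 splenic tumor) in S1 to S7 and was at 10.9, 10.6, 14.9, and 30.03 CPM in S8 to S11, with no overlap.

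**Figure D4:**
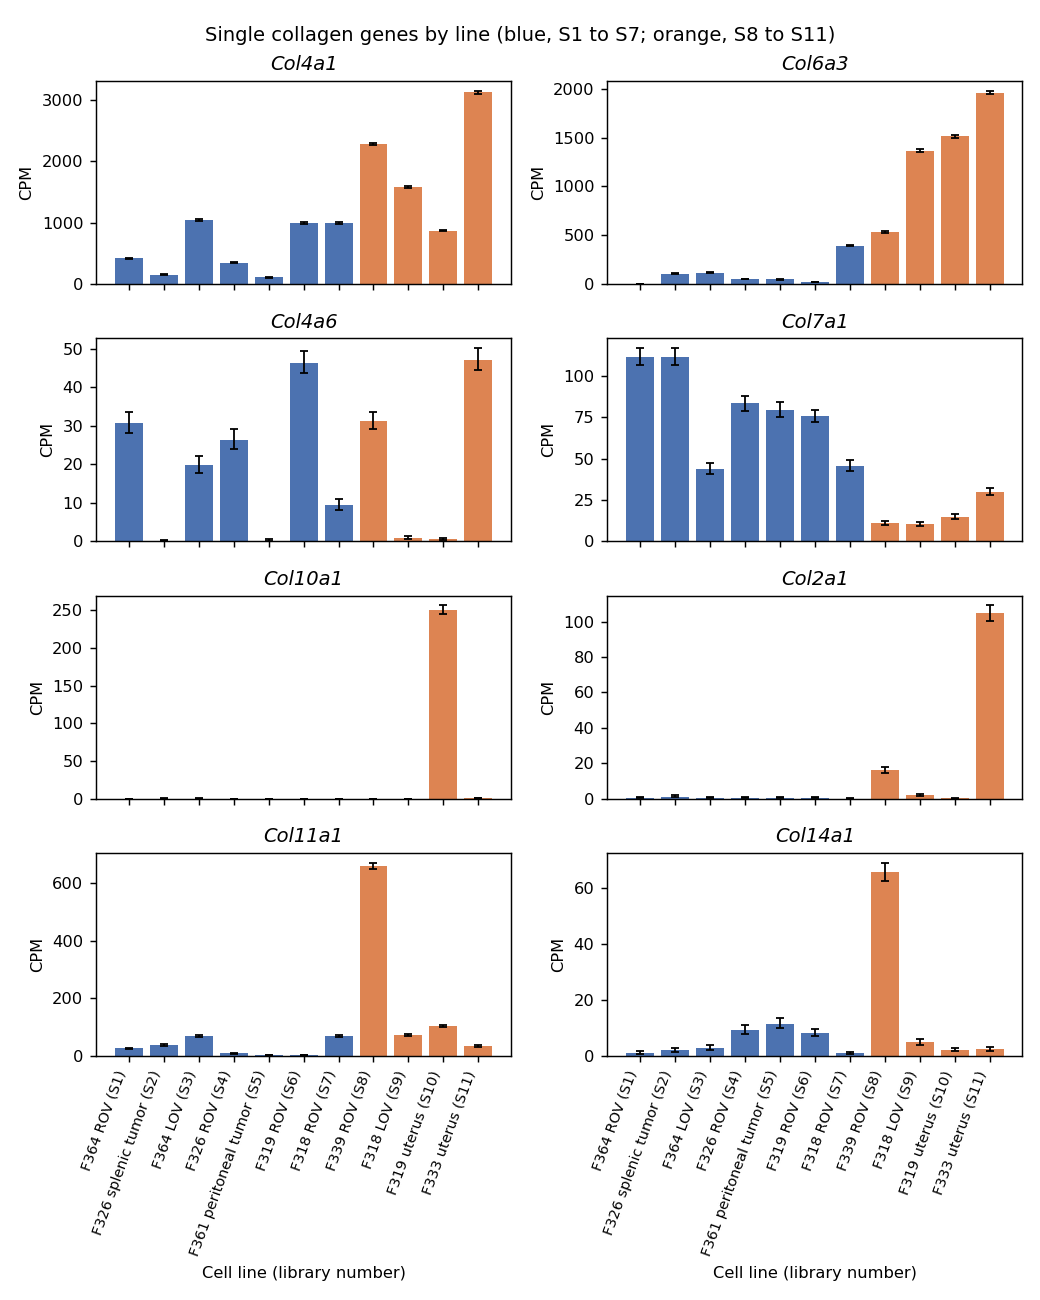
CPM of 8 genes in each line, with S1 to S7 in blue and S8 to S11 in orange. Bars start at 0, and whiskers are 95% Wilson intervals, which cover counting error only. Col10a1 stands at 250.3 CPM in F319 uterus, Col2a1 at 105 CPM in F333 uterus, and Col11a1 and Col14a1 at 659 and 65.6 CPM in F339 ROV.

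Of the 9 FACIT chains, Col12a1 and Col16a1 were abundant. Col12a1, which coats fibrils in tendon and other loaded tissue, was between 5.71 CPM (F364 ROV) and 529.9 CPM (F318 ROV) in S1 to S7, with a median of 30.6, and 918, 512, 619, and 406 CPM in S8 to S11, so the series overlapped through F318 ROV. Col16a1, which links cells and microfibrils, was at 5.90 over 41.1 to 111 CPM in S1 to S7 and, in a narrow band, at 281, 285, 286, and 243 CPM in S8 to S11. Col14a1, another fibril-coating chain, was at 65.6 CPM in F339 ROV, 5.68 times the next line (F361, 11.6 CPM). Col22a1, a chain of the junction between muscle and tendon, ranged from 2.74 (F318 ROV) over 6.07 to 23.0 CPM (F326 ROV) in S1 to S7 and from 0.157 (F339 ROV) to 1.35 CPM in S8 to S11, beside the higher muscle fiber share of S1 to S7, whose part in it was not tested. The multiplexins are vessel and basement membrane collagens that carry heparan or chondroitin sulfate. Col15a1 was between 9.37 and 84.1 CPM in S1 to S7, and at 128.7 CPM in F339 ROV, 16.5 in F318 LOV, 2.85 in F319 uterus, and 9.05 in F333 uterus. Col18a1, the source of endostatin, was highest in F318 LOV (159 CPM), F326 ROV (115 CPM), and F333 uterus (109 CPM), and lowest in the F326 splenic tumor line (7.47 CPM). Col17a1, the transmembrane collagen of epithelial hemidesmosomes, was at 10.1 CPM in F361, 3.14 CPM in F326 ROV, and 1.07 CPM or less elsewhere. It was the only one of 4 transmembrane chains to reach 10 CPM.

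Counted over the 29 genes that reached 10 CPM, the highest line was F339 ROV for 12, F333 uterus for 6, F319 uterus and F326 ROV for 3 each, F364 ROV for 2, and the F326 splenic tumor, F361, and F318 LOV lines for 1 each. These genes were chosen by their highest line, and the same count over all genes was not made. The libraries S8 to S11 were next compared with S1 to S7 by edgeR's quasi-likelihood test over all 11 lines, with Benjamini-Hochberg adjustment over 15954 genes. The boundary was placed where the muscle fiber and Y-linked counts change, so it is not independent of the data, and organ, mouse, and library series are partly confounded. Of the 37 genes that passed the filter on low counts, 12 (32.4%) were higher in S8 to S11, against 28.6% of all genes tested, and 13 (35.1%) were lower, against 29.9%. Both shares were near the background. When the mouse was added to the fit as a block, which rests the comparison on F318 and F319, the 2 mice with lines in both series, and leaves 3 residual degrees of freedom, 0 of the 37 were higher, against 5.45% of all genes in that fit, and 5 were lower (Col7a1, Col13a1, Col19a1, Col20a1, and Col23a1), against 13.5%. With lines of a mouse in the same series summed, 10 of 36 were higher and 12 lower, against 27% and 28.6% of all genes. The median log2 fold change was 0.24 over the 37 genes and 0.025 over all genes. In 5 of the 37, each line of S8 to S11 lay above each line of S1 to S7 (26.1% of all genes), and in 7 each lay below (17.1% of all genes).

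Without the mouse block, the 12 higher genes were 5 fibrillar, 3 type IV, and 3 type VI chains and Col16a1, and all 12 reached at least 105 CPM in their highest line. Col2a1 differed most (log2 fold change 5.56 ± 1.17 SE, adjusted p = 0.00171), followed by Col6a3 (3.42 ± 0.88, adjusted p = 0.00559) and Col5a2 (2.69 ± 0.65, adjusted p = 0.00412). The others were Col3a1 (2.51), Col5a1 (2.50), Col11a1 (2.39), Col16a1 (2.26), Col6a2 (2.08), Col6a1 (2.01), Col4a5 (1.88), Col4a2 (1.67), and Col4a1 (1.47, adjusted p = 0.0456). Col2a1 was uneven within S8 to S11. F319 uterus (0.296 CPM) lay within the range of S1 to S7, and F318 LOV (1.88 CPM), F339 ROV (16.2 CPM), and F333 uterus (105 CPM) lay above it. With the block, Col2a1 was at 1.36 ± 1.08 (adjusted p = 0.398), Col6a3 at 3.88 ± 2.02 (adjusted p = 0.209), Col5a2 at 1.22 ± 0.76 (adjusted p = 0.284), and Col4a1 at 0.018 ± 0.61 (adjusted p = 0.986). Without F339 ROV, 7 of 37 were higher and 11 lower, against 26% and 28.1% of all genes. The lower count includes a call not made with all 11 lines. Col4a1, Col4a5, Col6a1, Col6a2, and Col11a1 (0.80 ± 0.81, adjusted p = 0.419) were no longer past the threshold. Col5a3 (-0.53) and Col14a1 (-1.06), not past it with all 11 lines, changed sign. Without F333 uterus Col4a1 (adjusted p = 0.157), Col4a2 (adjusted p = 0.0645), and Col4a5 (adjusted p = 0.0633) were no longer past it, nor were Col6a1 and Col6a2 without F319 uterus, or Col6a1, Col4a1, and Col11a1 without F326 ROV. Col4a1 and Col11a1 were also not past it without F364 ROV, the F326 splenic tumor line, or F361, and Col4a1 without F318 LOV. With the 7 ovary lines alone, 5 of 38 were higher and 8 lower, against 18.6% and 22.1% of all genes. Calls lost there were those of Col3a1, Col5a1, and Col6a3, which did not overlap between the series, and of Col4a1, Col6a1, Col6a2, and Col11a1. Among lower genes they were those of Col9a1, Col13a1, Col17a1, Col24a1, and Col28a1. The summed level of the 12 genes was 751 to 6849 CPM in S1 to S7 and 11540 to 16976 CPM in S8 to S11. Among 5 smooth muscle markers, Acta2, smooth muscle actin, was at 62.6 to 2152 CPM in S1 to S7 and 2636 to 3614 CPM in S8 to S11, and Cnn1, calponin, at 2.27 to 231 and 256 to 471 CPM. Tagln, transgelin, was at 49.8 to 815 and 740.4 to 1622 CPM, while Myh11, smooth muscle myosin, was at 13.0 to 158 and 5.34 to 11.6 CPM and Des, the muscle filament desmin, at 4339.9 to 8703 and 51.7 to 561 CPM. The list as a whole held 0.474% to 1.01% and 0.446% to 0.595% of the counts. The part of such cells in the collagen levels was not tested.

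The 13 lower genes, again without the block, were mostly at low levels, and 7 of them stayed below 10 CPM in all lines. Col7a1 was the most abundant (log2 fold change -2.60 ± 0.43 SE, adjusted p = 0.000453) and Col19a1 had the lowest fold change (-4.96 ± 0.85, adjusted p = 0.000526). With the block they were at -2.46 ± 0.48 (adjusted p = 0.0191) and -8.52 ± 1.23 (adjusted p = 0.0119), whereas 8 of the 13 were no longer past the threshold, among them Col9a1 (-0.47 ± 1.81, adjusted p = 0.874) and Col22a1 (-1.69 ± 0.85, adjusted p = 0.197). Next were Col6a6 (-4.88), Col23a1 (-4.30), Col9a1 (-4.05), Col4a3 (-3.96), Col17a1 (-3.67), Col13a1 (-3.55), Col22a1 (-3.50), Col24a1 (-3.08), Col4a4 (-2.86), Col20a1 (-2.66), and Col28a1 (-1.47). Calls were lost for Col24a1 without F326 ROV or either uterus line, for Col4a3, Col24a1, and Col28a1 without F339 ROV, for Col9a1, Col4a3, and Col28a1 without F318 LOV, and for Col4a3 and Col28a1 without F319 uterus. By class, 3 of 3 tested transmembrane chains and 4 of 8 tested FACIT chains were lower, beside 29.9% of all genes, and 5 of 9 fibrillar chains were higher, beside 28.6%. The classes were not tested against each other, and with the block 0 fibrillar chains were called. Within type IV, Col4a1, Col4a2, and Col4a5 were higher, Col4a3 and Col4a4 were lower, and Col4a6 was not past the threshold (-0.21 ± 1.32, adjusted p = 0.903). Of these 5 calls, Col4a4 alone was unaffected by leaving out any 1 line, and none was past the threshold with the block. The summed level of the 13 genes was 69.5 to 177 CPM in S1 to S7 and 16.6 to 38.2 CPM in S8 to S11. The muscle fiber share moved in the same direction as these genes, and so did the Schwann cell list (0.00199% to 0.00853% and 0.000432% to 0.000806% of counts), the blood list (0.00117% to 0.00220% and 0.000423% to 0.000773%), and, with overlap, the endothelial list (0.00681% to 0.0299% and 0.000262% to 0.00726%). The part of these cells in them was not tested. With the muscle fiber genes left out of the fit, the counts of 12 higher and 13 lower were the same. That removes only the rows of those genes, not collagen counts from such cells, so it does not test their part. Not past the threshold were Col5a3, Col11a2, Col27a1, Col4a6, Col6a4, Col8a1, Col8a2, Col9a3, Col12a1, Col14a1, Col15a1, and Col18a1. DESeq2, over the 41 genes for which it gave an adjusted p, called 14 higher and 15 lower, against 22.9% and 28.9% of all such genes, and these included Col8a1 (2.34), Col8a2 (2.05), and Col11a2 (-1.57). The filter left out Col6a5, Col9a2, Col10a1, Col25a1, and Col26a1.

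**Figure D5:**
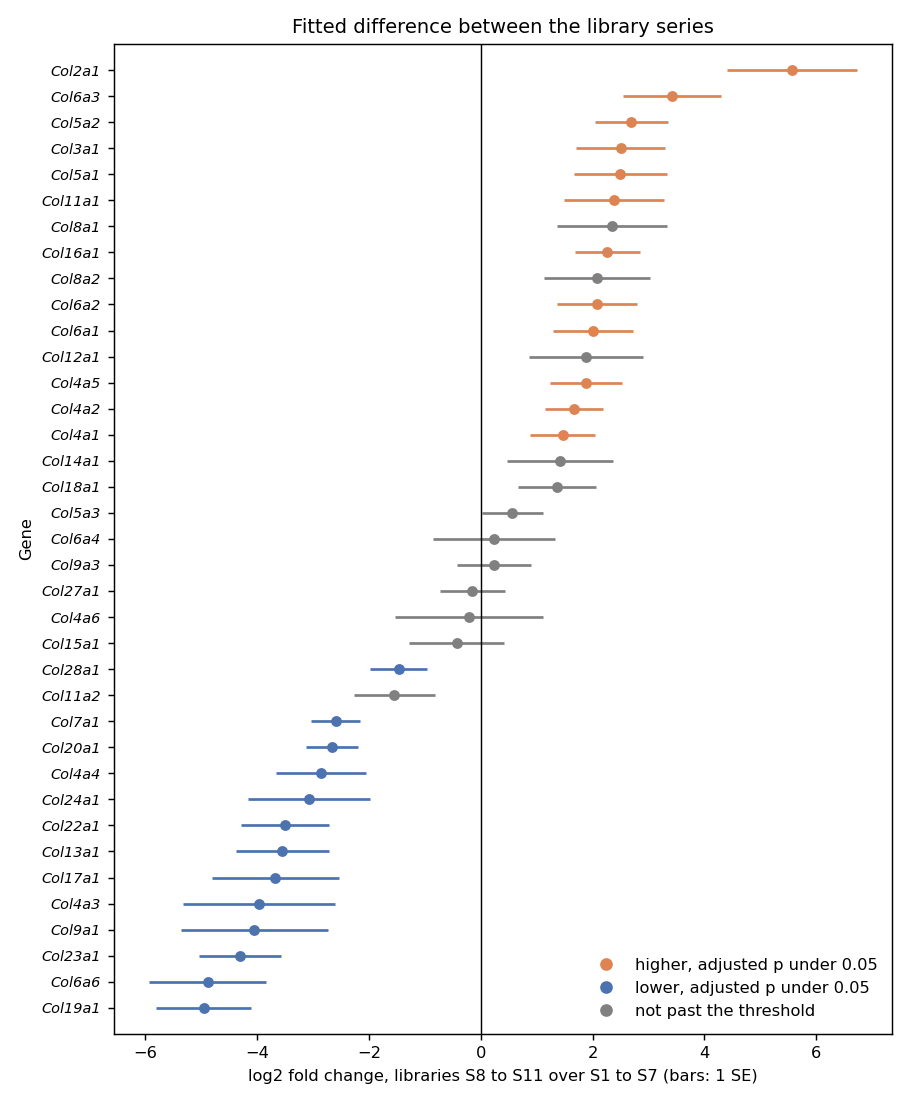
Fitted log2 fold change of libraries S8 to S11 over S1 to S7 for the 37 genes tested, without the mouse block, with bars of 1 SE. Orange points are higher and blue points lower at an adjusted p under 0.05, and gray points are not past it. The values run from -4.96 (Col19a1) to 5.56 (Col2a1).

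The labels allow 1 comparison between organs, the 2 uterus lines against the 7 ovary lines. In edgeR's quasi-likelihood test, 0 of the 40 genes tested passed an adjusted p of 0.05, as did 0 of all 17446 genes (0%). At an unadjusted p under 0.05 there were 6 of 40, against 13.2% of all genes. DESeq2 called 5 of the 40 genes for which it gave an adjusted p (Col2a1, Col10a1, Col15a1, Col23a1, and Col24a1), against 7.26% of all such genes. The median log2 fold change was -0.81 over the 40 genes and -0.048 over all genes. Both uterus lines lie in S8 to S11, and within those 4 libraries 0 genes of any kind passed, with 522 at an unadjusted p under 0.05.

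Col10a1 and Col2a1 had large fitted differences between the organs that rested on single lines. Col10a1 had a log2 fold change of 11.07 ± 1.42 (adjusted p = 0.148), and without F319 uterus it was 4.22 ± 1.33 (adjusted p = 0.662). Without F333 uterus, which leaves 1 uterus line assumed to vary like the ovary lines, it was 12.08 ± 0.84 (adjusted p = 0.00428) and was then the 1 gene called. Col2a1 had 4.29 ± 1.62 (adjusted p = 0.359), but without F333 uterus the sign turned, to -3.32 ± 2.81 (adjusted p = 0.605), as it did with the mouse as a block (-0.71 ± 1.69, adjusted p = 0.834). For Col15a1, at 2.85 and 9.05 CPM, both uterus lines lay below all 7 ovary lines (16.5 to 128.7 CPM). Its log2 fold change was -3.33 ± 0.96 (adjusted p = 0.359), and within S8 to S11 it was -3.53 ± 1.17 (adjusted p = 0.9998). For Col6a3 (1515 and 1962 CPM) and Col10a1 (250.3 and 0.928 CPM), both uterus lines lay above the highest ovary line (1366 and 0.127 CPM). The share of all genes that part the organs in this way was not counted.

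Lines of the same mouse were compared over the 29 genes that reached 10 CPM, as a description. The median absolute difference in log2(CPM + 1) was 1.04 between F318 ROV and F318 LOV, which lie in different library series, and 1.08 between F364 ROV and F364 LOV. It was 1.71 between F326 ROV and the F326 splenic tumor line and 1.84 between F319 ROV and F319 uterus. These pairs ranked 13, 14, 36, and 37 of all 55 pairs of lines in order of increasing difference. The closest pair of all came from different mice, F326 ROV and F361, with a median difference of 0.39 and 19 of the 29 genes within 2-fold. They shared the high levels of Col11a2, Col24a1, Col17a1, and Col22a1, but differed by 4.58 in Col4a6, which was at 26.4 and 0.147 CPM. Within F364, the ovaries shared the high type IV share but differed by 5.01 in Col6a3, at 2.54 and 113 CPM. Within F326, Col12a1 differed most, at 9.41 CPM in the ovary line and 317 CPM in the splenic tumor line.

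Collagen chains need hydroxylases and chaperones before they can form fibers, which are then crosslinked by enzymes. Of 38 genes for such steps, 37 were tested between the library series, and 24 were higher in S8 to S11, 2 were lower, and 11 were not past the threshold, beside the 28.6% and 29.9% of all genes given above. Their median log2 fold change was 1.49. The muscle fiber list and the summed fibroblast list, whose members did not move together, differed between the library series as given above. Their part was not tested. With the mouse as a block, 1 was higher (Fkbp10, a collagen chaperone), beside 5.45% of all genes, and the same 2 were lower, beside 13.5%, and the values that follow are without the block unless stated. Serpinh1, the collagen chaperone HSP47, ranged from 97.3 over 462 to 1333 CPM in S1 to S7 and from 1651 to 2286 CPM in S8 to S11 (1.70 ± 0.48, adjusted p = 0.00946, and 0.76 ± 0.46, adjusted p = 0.274, with the block). Lox, which starts the crosslinks of fibrils, ranged from 11.3 to 631 CPM and from 788 to 2263 CPM (2.38 ± 0.87, adjusted p = 0.0324, and 0.54 ± 1.33, adjusted p = 0.799, with the block). Plod2, the lysyl hydroxylase of collagen ends, ranged from 6.41 to 61.9 CPM and from 123 to 204 CPM (2.30 ± 0.53, adjusted p = 0.00307, and 1.14 ± 0.82, adjusted p = 0.350, with the block). Among the other higher genes of this list, the largest differences were Loxl4 (3.23) and Loxl3 (3.18), both lysyl oxidases, and the prolyl hydroxylase subunits P4ha3 (2.49) and P4ha1 (2.48). The 2 lower genes were Colgalt2 (-4.81), a collagen galactosyltransferase that did not exceed 8.03 CPM in any line, and Tmem38b (-3.34), an ion channel of the endoplasmic reticulum that was at 66.4 to 226 CPM in S1 to S7 and 13.0 to 24.3 CPM in S8 to S11. Of 10 collagen receptor genes, 8 were tested, and 3 were higher in S8 to S11 with 0 lower: Ddr2 (2.49 ± 0.70, adjusted p = 0.00958), a kinase bound by fibrillar collagen, Mrc2 (1.95 ± 0.68, adjusted p = 0.0267), which takes up collagen, and Itgb1 (1.92 ± 0.34, adjusted p = 0.000639), the common beta chain of the collagen-binding integrins. With the block, 0 of the 8 receptors were called. Between uterus and ovary, 0 of the 37 processing genes and 0 of the 8 receptors passed the adjusted threshold, with 6 and 0 at an unadjusted p under 0.05, beside 13.2% of all genes.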

How the data were processed

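Polyadenylated RNA of 11 cell lines was sequenced with a strand-marking kit, and per the methods of the study the authors used RNA STAR to map read pairs to mm10 (GRCm38, Ensembl annotation), SAMtools RmDup to drop PCR duplicates, and featureCounts to count per gene. The deposited values are raw counts without normalization. Duplicate removal by position lowers the counts of highly expressed genes. The strand setting of the counting is not given in the sources used here, so genes that overlap, such as the ends of Col4a1 and Col4a2, are uncertain there. Between 71.9% and 79.6% of counts from 1 to 20 were even, as when both mates are counted, and intervals that treat each count as 1 read are then too narrow. The sources name no molecular identifiers.

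Titles gave the groups and descriptions the library numbers. CPM used each library's total. Lengths were the union of exons in GENCODE M21, matched by symbol for 42 of 42 genes, and are not the annotation of the authors. edgeR 4.0.16 (TMM, filterByExpr, quasi-likelihood test, two-sided) in R 4.3.3 was fitted over all genes, with DESeq2 1.42.0 as an alternative, and SE was the absolute log2 fold change over the square root of F. The script was tested on simulated data. Collagen genes with at least 10 CPM in a line or past an adjusted p of 0.05 were named with values, and so were Serpinh1, Lox, Plod2, and up to 8 called genes of the processing and receptor lists with the largest absolute change. Fkbp10, the cell type markers named, and the ratios Col4a3 to Col4a4 and Col4a5 to Col4a6 were added after their values were seen. Alternatives were other size factors, DESeq2, no filter, no muscle fiber genes, summed lines of a mouse, the mouse as a block (added after the data were seen, from the mouse in each title), library series as a term, subsets of libraries, and each line left out. The genes, gene lists, and the boundary between S7 and S8 were chosen with earlier results of these data known. Each line is 1 library, so p-values measure the spread between lines, some of which share a mouse. RefSeq promoters matched 34 of the 42 genes. Tables were made with pandas 2.3.3 and scipy 1.17.1 in Python 3.11.15.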

Additional observations from a re-analysis of the deposited data

Results flagged for a closer look

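Dixon's test for a single outlying line was applied to log2(CPM + 1) of the 29 genes that reached 10 CPM, in the 7 ovary lines, in libraries S1 to S7, and in libraries S8 to S11. In 7 of 87 groups a line was farther from the rest than the 95% critical value, where chance gives about 1 in 20 for genes not chosen by level. These genes were chosen for a high line, so that rate does not apply to them. Among ovary lines, F339 ROV was high for Col2a1 (16.2 CPM against 0.114 to 1.88 CPM) and for Col8a2 (50.7 CPM against 0.698 to 3.31 CPM), and F326 ROV was high for Col17a1 (3.14 CPM against 0.235 to 1.07 CPM). In S1 to S7, F361 was low for Col4a5 (2.36 CPM against 34.3 to 115 CPM). In S8 to S11, F319 uterus was high for Col10a1 (250.3 CPM against 0.0784 to 0.928 CPM, a gene that reached 10 CPM through this line alone), F333 uterus was low for Col16a1 (243 CPM against 281 to 286 CPM), and F339 ROV was low for Col22a1 (0.157 CPM against 1.25 to 1.35 CPM). The Col16a1 line is low only beside 3 nearly equal values. Why these lines stand apart was not tested.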

How the results depend on the processing

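For uterus against ovary, the count of all genes past the threshold moved from 0 to 1315 with DESeq2 and 2 without the filter on low counts, and that of collagen genes from 0 to 5 and 1. Leaving out each line in turn gave 0 to 1 for both, the 1 gene being Col10a1 without F333 uterus. Scaling by DESeq2's size factors in edgeR, summing lines of a mouse, dropping the muscle fiber list, a term for library series, the mouse as a replicate block, and libraries S8 to S11 alone left both at 0. Col2a1 ran from -3.32 (without F333 uterus) to 6.22 when each line was left out, and was at -0.71 with the block. The block, chosen after seeing the data, leaves 2 residual degrees of freedom here and rests on F319 alone. For S8 to S11 against S1 to S7, 5 collagen genes were higher and 8 lower with the ovary lines alone, from 12 and 13, and 0 higher and 5 lower with the mouse as a replicate block, where all genes past the threshold fell from 9337 to 3028. With lines of a mouse summed, 10 were higher and 12 lower. Col4a1, Col4a5, and Col11a1 lost their calls, 1 other gene gained a higher call, and Col9a1 was not tested. Leaving out each line gave 7 (without F339 ROV) to 14 higher and 10 to 13 lower. Of the 25 genes called, 14 stayed past the threshold whichever line was left out, and so did Col17a1 in the 7 of 11 such fits that tested it. Past it in every alternative were 4, Col7a1, Col19a1, Col20a1, and Col23a1. The shares of all genes that kept their calls in these ways were not counted, so these counts have no background. Col4a1 lost its call in 10 alternatives and Col11a1 in 8. Signs turned for genes that were not past the threshold. When each line was left out, Col4a6 ran from -1.18 to 0.21, Col27a1 from -0.83 to 0.17, Col5a3 from -0.53 to 0.87, Col6a4 from -2.69 to 0.62, and Col14a1 from -1.06 to 1.80. With the block, Col5a3 was at -1.27 and Col14a1 at -0.11. With ovary lines alone, Col15a1 was at 0.22, Col27a1 at 0.54, and Col6a4 at -2.35. The cause was not tested. The median share of counts stayed between 0.343% and 0.587% when each line was left out. At this depth, genes under 0.221 CPM were not detectable in the shallowest library, and 1 library per line leaves the spread within a line unmeasured.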
